A study of Danio rerio with 46 samples.

Results

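The genes described here encode the proteins of the cytosolic ribosome in zebrafish. They were taken as every array row whose name begins with rpl, rplp or rps followed by a digit, leaving out the ribosomal protein S6 kinases (rps6k). The rule found 79 of 31475 rows, of which 46 are counted by name with the large subunit and 33 with the small subunit. The latter include rps19bp1, which is named for a binding protein and is no structural part of the ribosome. For 78 of them the name is a current RefSeq symbol, and rplp2l is an older name of rplp2b.

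A ribosome joins a small subunit, which reads the mRNA, to a large subunit, which forms the peptide bond. Each subunit is assembled in the nucleolus from ribosomal RNA and one copy of most proteins, so the genes of both subunits are known for being expressed together and at high levels in nearly all cells. In vertebrates their mRNAs carry a 5′ terminal oligopyrimidine (TOP) tract through which the TOR pathway sets their translation. Fish and frog oocytes are known for storing ribosomes and 5S ribosomal RNA for the embryo, and germ cells of the testis for paralogous copies of some ribosomal protein genes in mammals.

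The study asked how a period of heat in juvenile life acts on the gonad transcriptome. Fish were kept at 36 °C (heat) or at 28 °C (control) during days 18 to 32 after fertilization (dpf), and at 28 °C afterwards. There were 10 heat trunks and 8 control trunks of juveniles at 37 dpf whose sex was not known, and the labels give the trunk as their tissue. At 90 dpf there were 10 heat testes, 10 control testes, 4 heat ovaries and 4 control ovaries. No strain, genotype or transgene is given in the labels, which call the samples biological replicates. Total RNA was amplified as a whole transcriptome, labelled with Cy3 and hybridised to 46 single-colour NimbleGen arrays, with 1 sample per array. All values are log2 signals as normalized by the authors, so a difference of 1 is a 2-fold difference in signal. A row was said to pass the test when its limma p-value, adjusted over all 31475 rows, was under 0.05.

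The tissue labels were set against marker lists of the 2 gonads. The male germ cell markers averaged 12.28 ± 0.10 in control testes and 8.38 ± 0.26 in control ovaries (SD, n = 10 and 4). The oocyte markers averaged 8.82 ± 0.51 in control testes and 13.71 ± 0.18 in control ovaries. Heat ovaries 2 and 4 stood apart in the male germ cell markers, with means of 11.98 and 12.08, against 8.51 and 8.57 in heat ovaries 1 and 3. Their oocyte marker means were still high, at 12.36 and 12.77, against 13.73 and 13.75 in heat ovaries 1 and 3. Heat ovaries 2 and 4 thus held high signals of both lists. Tests and counts that rest on heat ovaries are therefore given with and without these 2 arrays. In the trunks all 18 oocyte markers were lower after heat, with a list mean of 7.10 ± 0.85 in heat trunks and 12.10 ± 1.99 in control trunks (SD, n = 10 and 8). The control trunks ranged from 9.02 to 13.67 in that list, and heat trunks 1, 2 and 10 had the highest values after heat (9.30, 7.54 and 7.38 in that order). No scan, slide or hybridisation batch was known for these arrays, so none could be tested.

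Most ribosomal protein rows gave some of the highest signals on the arrays. In the 28 adult arrays 46 of the 79 rows had a mean signal of 14 or more, 26 lay between 8 and 14, and 7 lay under 8. The median over all rows was 8.17. In the same arrays 44 of the 79 rows were among the top 1% of all rows. In the 18 trunk arrays 48 rows reached 14 and 43 were in the top 1%. Signals of different rows come from different probes, so they do not rank the mRNAs of the members. The rows under 8 include rpl23, rps8b and rpl39 at both ages.

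The members also varied little between arrays of a group. The median within-group SD of the 79 rows lay between 0.12 in heat trunks and 0.21 in heat ovaries. Over all rows the median SD lay between 0.37 in control trunks and 0.69 in heat ovaries. In each of the 6 groups 73 to 78 of the 79 members had an SD below the median of all rows. Other rows at 14 or more, which share the bright end of the scale, had median SDs of 0.15 to 0.25, so the gap to rows of like brightness was much smaller. Between pairs of members within a group, the median correlation across arrays lay between -0.01 in control ovaries (4 arrays) and 0.29 in heat ovaries (4 arrays), a description of arrays that share a normalization.

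As a set, the ribosomal protein rows moved little with heat, and between the gonads by an amount that depends on the scaling. The mean over the 79 rows was 13.33 ± 0.06 in heat trunks and 13.31 ± 0.06 in control trunks (SD, n = 10 and 8). It was 12.85 ± 0.06 in heat testes and 12.83 ± 0.04 in control testes (SD, n = 10 each). In ovaries it was 12.68 ± 0.10 after heat and 12.66 ± 0.03 in controls (SD, n = 4 each). Each of these 3 heat differences, of 0.03, 0.02 and 0.02, was smaller than the SD of either group it compares. With each array centred on the median of all its rows they were -0.004, -0.02 and -0.07, so their direction depends on the scaling. Control testes stood 0.17 above control ovaries, with ranges of 12.75 to 12.90 in control testes and 12.63 to 12.69 in control ovaries that do not overlap. With arrays centred on their median that difference became -0.004, so its size depends on the scaling. The upper quartiles of all rows were alike in control testes and control ovaries (means of 10.688 and 10.691). The means over all rows were 8.62 and 8.51 in the same order. Differences with other references for centring are not given here. In bulk samples such as these, fewer cells of a type and less RNA per cell cannot be told apart.

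**Figure D1:**
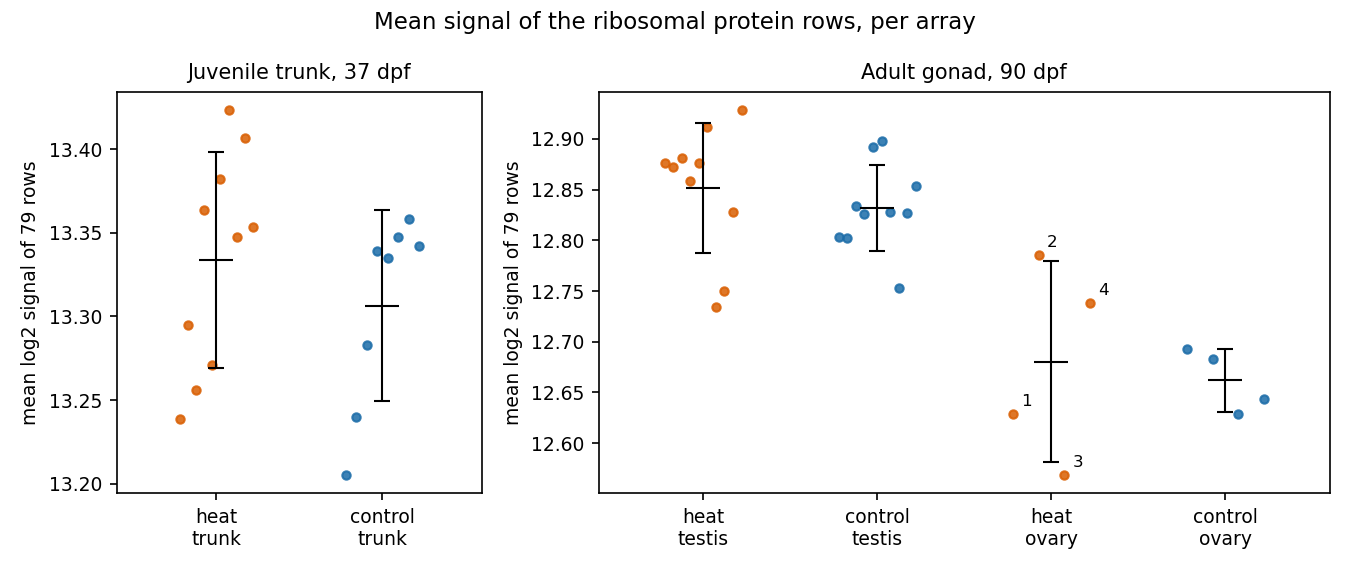
Mean log2 signal of the 79 ribosomal protein rows in each array (points), with the group mean and SD (black), for juvenile trunks on the left and adult gonads on the right; the 2 panels have different vertical scales, and numbers mark the heat ovaries. Heat and control arrays overlap in trunk and testis, heat ovaries 2 and 4 lie at 12.79 and 12.74 and heat ovaries 1 and 3 at 12.63 and 12.57, and the gap of 0.17 between control testes and control ovaries became -0.004 with centred arrays.

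The largest number of changed members was found between the adult gonads of control fish, which shows how the set differs between testis and ovary at 28 °C. In control testes 17 of the 79 rows were higher and 5 were lower than in control ovaries, and 57 did not pass the test. The members that passed make 27.8% of the 79, against a background of 60.3% of all rows. In the higher direction the share was 21.5% of members against 29.6% of all rows, and in the lower direction 6.33% against 30.8%. The median difference of the members was 0.18, and that of all rows was 0.007. With arrays centred on their median the split turned to 7 higher and 10 lower (background 25.8% and 35.1%), with a member median of 0.007 against a median of -0.17 for all rows. Only 4 of the 79 rows had a difference of 2-fold or more, among them rpl27, which did not pass the test.

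The 2 subunits gave like values. In the large subunit 11 of 46 rows were higher and 2 lower in control testes, with a median difference of 0.19. In the small subunit 6 of 33 rows were higher and 3 lower, with a median of 0.17. With centred arrays the mean over the large-subunit rows was 0.03 higher in control testes, and that over the small-subunit rows 0.06 lower (-0.06). The small-subunit rows include rps19bp1, no structural part of the ribosome, which is among the lower rows and differed by -1.16 with centred arrays. Small-subunit values without rps19bp1 are not given.

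The largest rises in testis were those of rpl19 and rpl30, both proteins of the large subunit. The rpl19 row read 11.15, 11.60 and 12.07 (lowest, median and highest of 10) in control testes. In the 4 control ovaries it read 11.10, 10.50, 10.48 and 10.20. Every control testis lay above every control ovary, by a narrow margin at control ovary 1, and the difference was 1.08 ± 0.19 (SE, adjusted p = 5.4e-05 by limma). The rpl30 row read 14.72, 15.04 and 15.21 in control testes, and 14.75, 13.66, 14.05 and 13.29 in the control ovaries. Control ovary 1 lay within the testis range and the other 3 below it, and the difference was 1.07 ± 0.21 (SE).

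Rises were also seen in rpl22, a large-subunit protein that binds RNA, and rps27.1 of the small subunit. The rpl22 row read 13.79, 14.39 and 14.62 (lowest, median and highest) in control testes, and 13.45, 13.81, 13.72 and 13.62 in control ovaries. A single control testis fell within the ovary range, and the difference was 0.70 ± 0.16 (SE). The rps27.1 row read 14.65, 14.89 and 14.996 in control testes and 14.09, 14.46, 14.06 and 14.43 in control ovaries. These groups did not overlap, and the difference was 0.61 ± 0.13 (SE).

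The stalk of the large subunit, which recruits elongation factors, is built on rplp0 with the acidic proteins of the rplp1 and rplp2 genes. The rplp0 row read 14.64, 14.84 and 15.21 in control testes and 14.24, 14.27, 14.22 and 14.53 in control ovaries. All control testes were above all control ovaries, and the difference was 0.57 ± 0.14 (SE). The rplp2l row was 0.49 ± 0.13 (SE) higher in control testes, also without overlap, but did not pass with centred arrays (0.32, adjusted p = 0.0513). The rplp1 row differed by 0.33 and did not pass the test (adjusted p = 0.052).

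In rpl38, whose loss in mice alters the translation of Hox mRNAs, control testes read 14.09, 14.26 and 14.42 (lowest, median and highest). The 4 control ovaries read 13.87, 13.59, 13.67 and 13.69, below all the testes, and the difference was 0.55 ± 0.12 (SE). The rpl5 and rpl11 proteins bind 5S ribosomal RNA and, in mammals, can hold back Mdm2 when assembly fails. The rpl11 row was 0.36 ± 0.13 (SE) higher in control testes and rpl5a 0.40 ± 0.12, while rpl5b differed by 0.03 ± 0.12. Further rises, in rps26, rps15, rps23, rps27.2, rpl7a, rpl35 and rpl35a, lay between 0.31 and 0.49. With centred arrays rpl11, rpl5a and these 7 rows did not pass (0.14 to 0.32, adjusted p = 0.066 to 0.377 by limma). As deposited, 13 of the 22 calls held whichever single array was left out. Among the rises, rps26 was lost without control ovary 1, rps27.2 without control ovary 1 or 3, rpl7a without control ovary 3 or 4 and rpl11 without control ovary 2 or 4. The rpl35 and rpl35a calls were lost without any of several arrays of either gonad.

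The rows lower in testis included rpl23, rps19bp1, rpl10 and rps16. The rpl23 row, a large-subunit gene, read 6.70, 6.92 and 6.99 (lowest, median and highest) in control testes and 8.15, 8.66, 7.85 and 9.22 in control ovaries. The groups were far apart, and the difference was -1.59 ± 0.20 (SE, adjusted p = 4.3e-06 by limma). The testis signals lie below the median of all rows in the adult arrays (8.17), and the ovary signals lie on both sides of it. The rps19bp1 row, named for a nucleolar protein that binds rps19 in human cells and is no structural part of the ribosome, differed by -0.98 ± 0.19 (SE). It read 10.13, 10.67 and 10.94 in control testes and 11.39, 11.62, 12.0004 and 11.34 in control ovaries, which do not overlap.

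The rps16 and rpl10 rows differed by less. The rps16 row of the small subunit read 9.95, 10.21 and 10.28 in control testes, against 10.53, 10.39, 10.63 and 10.66 in control ovaries. All testes were lower, by 0.37 in the mean, and the call was lost without control ovary 3 or control ovary 4. In rpl10, a protein that joins the large subunit late in its assembly, control testes read 8.92, 9.10 and 9.31 and control ovaries 9.34, 9.39, 9.51 and 9.94. Its difference was -0.44 ± 0.14 (SE), again without overlap, and it did not pass without control ovary 4.

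In all, 13 members lay above every control ovary in all control testes, or 16.5% of 79 against 19% of all rows, and 4 lay below, or 5.06% against 21.4%. By brightness the directions were uneven. Of the 46 members with a mean of 14 or more, 14 were higher in control testes and 0 lower, and 32 did not pass. Of the 33 members under 14, 3 were higher and 5 lower. Among the 414 other rows at 14 or more, 113 were higher and 74 lower, with a median difference of 0.11. The largest signal of an array lay between 15.36 and 15.89, and the part of brightness in these differences was not tested. Markers of other tissues moved too. Muscle markers were higher in control testes in 12 of 14 rows, liver markers in 8 of 12 and exocrine pancreas markers in 8 of 8, with lower ones in 0 of each. The muscle list averaged 10.65 (8.73 to 11.75) in control testes and 7.85 (7.66 to 8.12) in control ovaries, and the part of these tissues was not tested.

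**Figure D2:**
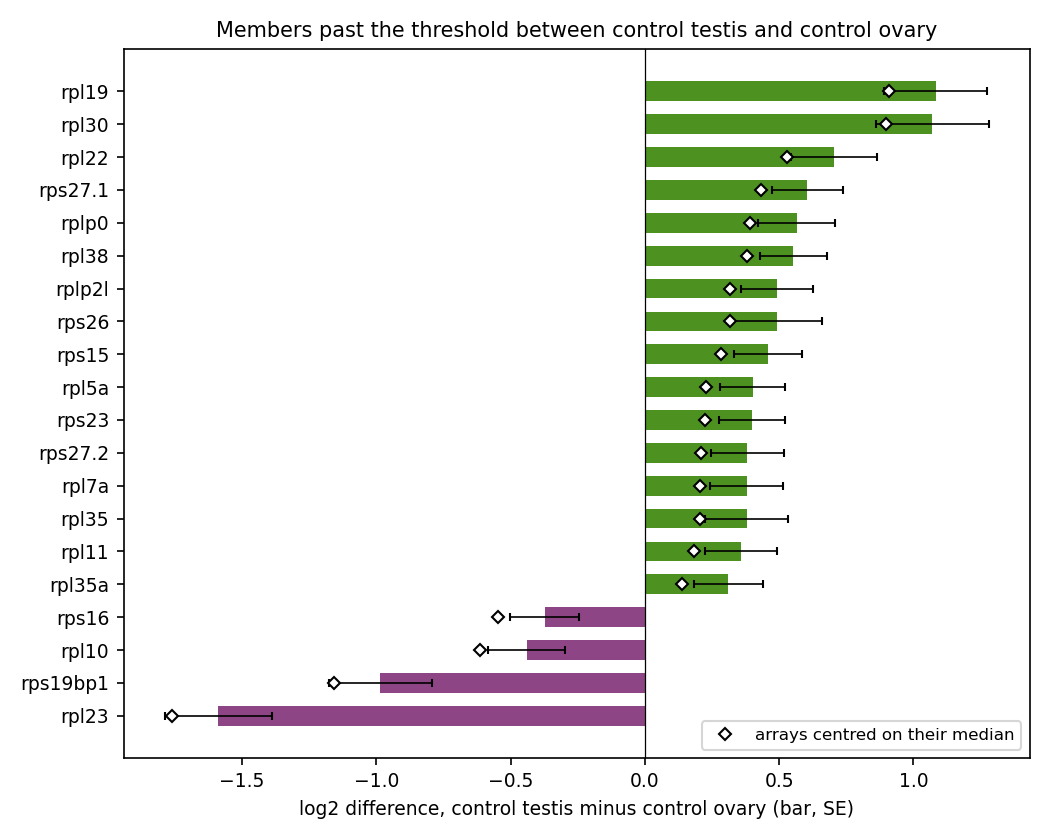
Log2 difference, control testis minus control ovary, of members past the threshold (bars, with SE; green higher and purple lower in testis), and the same difference with each array centred on its median (diamonds). Bars run from 1.08 in rpl19 to -1.59 in rpl23; centring moved every value down by 0.17, after which 7 of the 79 members were higher and 10 lower in testis.

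The rpl27 row shows how 1 array can set a mean. It lay between 14.85 and 15.37 in 43 of the 46 arrays, and read 11.29 in heat testis 7, 9.29 in heat ovary 3 and 7.49 in control ovary 3. Its difference between control testes and control ovaries was 1.91, the largest of all members, but did not pass (adjusted p = 0.111). Without control ovary 3 it was 0.03.

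The same contrast in heat-exposed fish rests on other arrays. In heat testes 7 of the 79 members were higher and 1 was lower than in heat ovaries, or 10.1% against a background of 31% of all rows (17% higher and 14% lower). The member median was 0.19 and that of all rows 0.08. Without heat ovaries 2 and 4 the counts were 17 higher and 3 lower, against a background of 48% of all rows (23.7% higher and 24.3% lower), with a median of 0.23. With all heat ovaries kept and arrays centred, the counts were 2 higher and 2 lower (background 14.6% and 16.4%). Centred counts without heat ovaries 2 and 4 are not given. Of the 22 members that passed in control fish, 20 had the same sign in heat-exposed fish, or 21 without heat ovaries 2 and 4. Those that passed in both temperatures in the same direction were 6 (27.3% of the 22 and 75% of the 8), namely rpl19, rpl22, rpl23, rpl30, rpl38 and rps27.2. Without heat ovaries 2 and 4 they were 14 (63.6% of the 22 and 70% of the 20). The matching shares over all rows are not given here. Member means carried a like offset in both contrasts, 0.17 as deposited in control fish and 0.17 in heat-exposed fish. With centred arrays the offsets were -0.004 and 0.04, so this agreement is not read as a trait of the members.

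The largest difference in heat-exposed fish was in rps8b, a copy of a small-subunit gene. It read 7.28, 8.0 and 9.36 (lowest, median and highest) in heat testes and 6.73, 7.10, 5.91 and 7.16 in heat ovaries. These did not overlap, and the difference was 1.34 ± 0.34 (SE, adjusted p = 0.010 by limma), or 1.75 ± 0.44 (SE) without heat ovaries 2 and 4. In control fish it read 6.90, 7.89 and 8.58 in testes and 7.13, 7.34, 7.17 and 7.31 in ovaries, which overlap, and did not pass. The rps27.2 row differed by 0.69 ± 0.17 (SE) in heat-exposed fish, with 12.79, 12.93 and 13.06 in heat testes and 11.88, 12.54, 12.12 and 12.44 in heat ovaries. It was 0.93 ± 0.17 (SE) without heat ovaries 2 and 4. In 6 members every heat testis lay above every heat ovary (7.59% of 79, against 5.38% of all rows), and in 0 every heat testis lay below (background 4.94%). Against heat ovaries 1 and 3 alone the counts were 31 above and 5 below, or 39.2% and 6.33% of members, where 22.7% and 24.5% of all rows lay so. These counts without overlap are given for the deposited values only, and the part of the scaling in them was not tested.

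Leaving out 1 heat ovary gave a count of 3 without heat ovary 1, 14 without heat ovary 2, 1 without heat ovary 3 and 10 without heat ovary 4. The count was 8 with all 4, and rps27.2 held in each case. The shares of all rows in these fits with a single array left out are not given here. With both heat ovaries 2 and 4 left out, the share over all rows rose from 31% to 48%. These counts therefore cannot show whether the members differ from all rows in gaining or losing calls. The heat ovaries also differed among themselves in the members that separate the gonads. In rpl23 heat ovaries 1 to 4 read 8.22, 6.60, 8.60 and 6.95, so arrays 2 and 4 lay at the testis level and arrays 1 and 3 within the control ovary range. Over the 22 members that passed in control fish, the median position on the way from the control ovary mean to the control testis mean was 3.23%, 84.6%, 1.83% and 77.1% in heat ovaries 1 to 4. Of the 17 members higher in control testes, 3, 11, 3 and 12 lay above every control ovary in heat ovaries 1 to 4. Of the 5 lower ones, 3, 4, 3 and 5 lay below every control ovary. Over all 9304 rows higher in control testes the shares above were 21.02%, 79.1%, 27.3% and 80.2%, against 17.6%, 64.7%, 17.6% and 70.6% of the members. Over all 9684 rows lower in control testes the shares below were 23.3%, 86.5%, 23.3% and 87.7%. These positions move with the male germ cell markers of the same arrays, and the part of such cells was not tested.

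**Figure D3:**
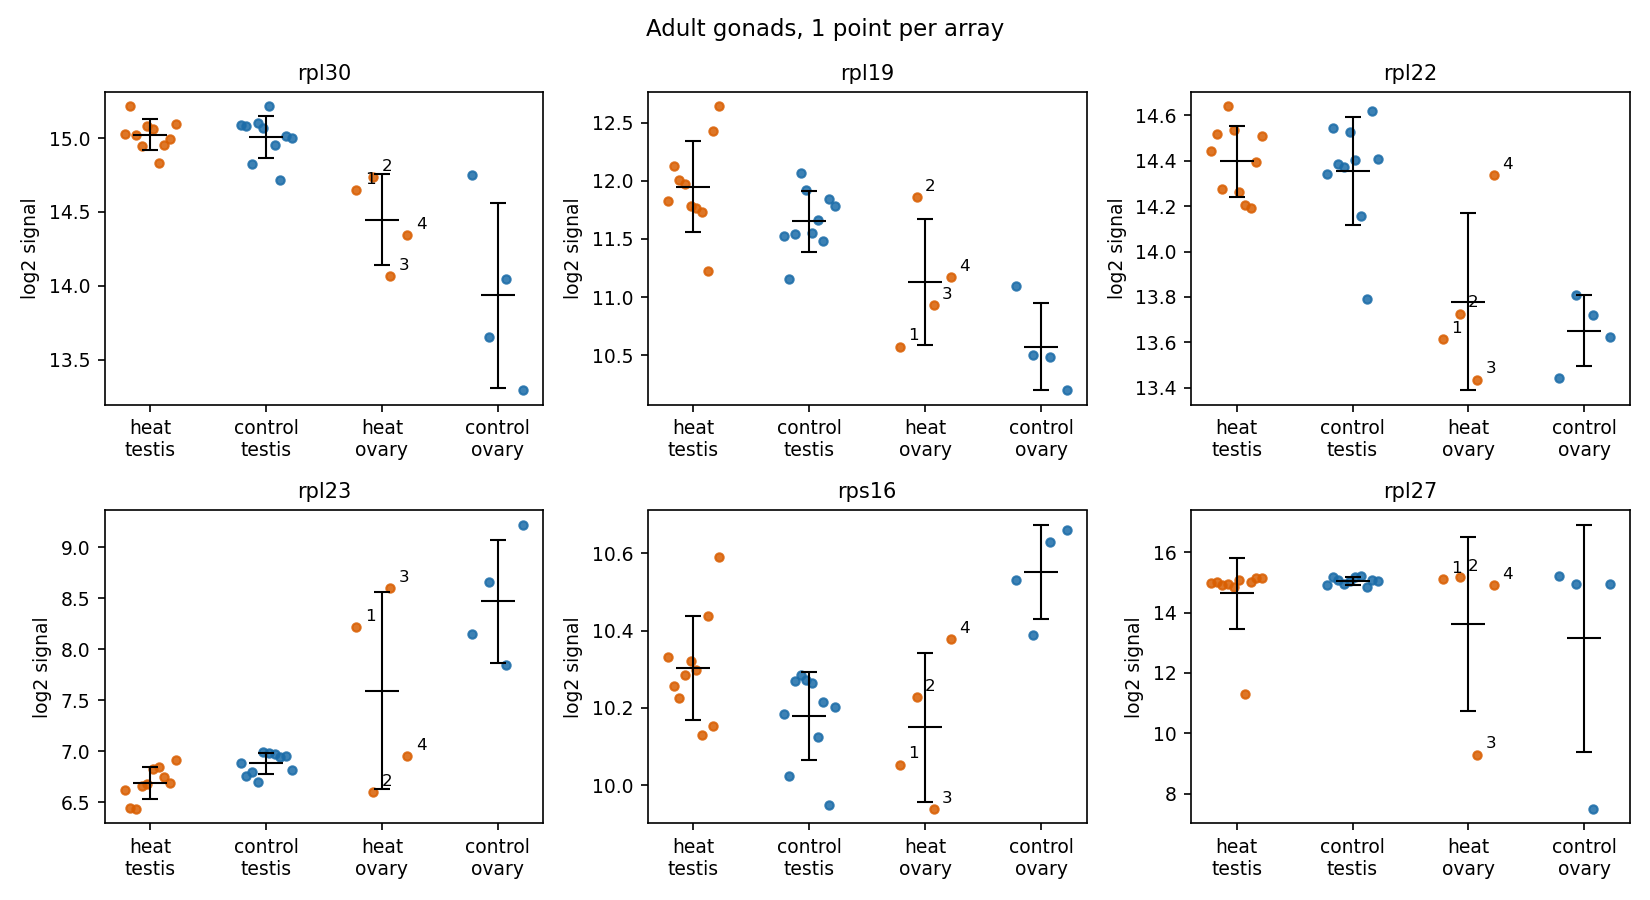
Log2 signal of 6 members in each adult array (points), with group means and SDs (black); numbers mark the heat ovaries. In rpl30, rpl19 and rpl22 testes lie above ovaries in the mean, in rpl23 heat ovaries 2 and 4 lie at 6.60 and 6.95 beside the testes, in rps16 all 4 heat ovaries lie below the 4 control ovaries, and in rpl27 single arrays fall to 11.29, 9.29 and 7.49.

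Few of these rows differed with heat in the juvenile trunk, sampled after the exposure had ended. In heat trunks 2 members were higher and 2 were lower than in control trunks, or 5.06% of the 79 against 14.5% of all rows (8.59% higher and 5.96% lower). The median difference of the members was 0.04, as over all rows (0.04), and 75 members did not pass. The 95% confidence interval of the difference lay within ±0.5 for 74 of the 79 and within ±1 for all 79. Among 696 other rows at 14 or more, 6.32% passed, and among the 48 members at that level 2.08%.

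The higher rows were rps27.2 and rps19 and the lower rows were rpl39 and rps8b. The rps27.2 row read 12.17, 12.74 and 13.03 (lowest, median and highest) in heat trunks and 11.89, 12.20 and 12.40 in control trunks. The groups overlapped, and the difference was 0.50 ± 0.13 (SE, adjusted p = 0.017). The rps19 row, a small-subunit gene mutated in human Diamond-Blackfan anaemia, read 14.68, 14.81 and 14.91 in heat trunks and 14.37, 14.55 and 14.72 in control trunks, a difference of 0.25 ± 0.08 (SE, adjusted p = 0.037). With centred arrays rps19 did not pass.

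Both lower rows had low signals. The rpl39 row, which codes for a small protein near the exit tunnel, read 7.04, 7.13 and 7.47 in heat trunks and 7.21, 7.45 and 7.91 in control trunks. It fell by 0.32 on the log2 scale (adjusted p = 0.040). The rps8b row read 5.45, 5.86 and 6.91 in heat trunks and 5.97, 6.61 and 6.87 in control trunks, and fell by 0.55 (adjusted p = 0.046). In each of the 4 the groups overlapped, and 0 of 79 members lay wholly above or below the control trunks (background 0.616% and 0.499%). All 4 calls were lost without heat trunks 1, 2 and 10 (background 9.1%) and with the oocyte marker mean as a covariate (background 0.591%). That covariate itself differed with heat (7.10 ± 0.85 in heat trunks and 12.10 ± 1.99 in control trunks). Its fit therefore cannot tell heat from the oocyte signal, and few rows of any kind passed in it. The fold of rps27.2 was then 0.47 without those arrays and 0.66 with the covariate, that of rps19 was 0.24 and 0.19, that of rpl39 was -0.28 and -0.09, and that of rps8b was -0.42 and -1.04, all on the log2 scale. Of these, only rps27.2 passed whichever single array was left out. The other 3 calls were all lost without control trunk 1, 5 or 7, or without heat trunk 7 or 10, and each other array left out cost 1 or 2 of them. Male germ cell markers were higher in heat trunks in 8 of 18 rows and lower in 2, with a list mean of 7.81 ± 0.44 in heat trunks and 7.22 ± 0.17 in control trunks. Neural markers were also higher in heat trunks in 11 of 13 rows and lower in 1. Their list mean was 11.38 ± 0.59 in heat trunks and 10.38 ± 0.42 in control trunks (SD, n = 10 and 8). The part of these markers in the differences of the members was not tested.

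In adults no member passed for heat. In heat testes 0 of 79 members differed from control testes, against a background of 0.0635% of all rows (20 rows). By limma 2 members had an unadjusted p under 0.05, and the smallest adjusted p was 0.234, in rps28. The confidence interval lay within ±0.5 for 72 members and within ±1 for 78. In 0 members did the heat testes lie wholly above or below the control testes (background 0.0286% and 0.0159%). The rps28 difference was 0.39 ± 0.12 (SE), and the lowest difference was that of rpl27 at -0.42, which rests on heat testis 7. The stalk rows rplp0, rplp1 and rplp2l differed by 0.03, 0.05 and 0.06.

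In heat ovaries 0 of 79 members differed from control ovaries, where the background was 0% of all rows (0 rows passed and 3334 had an unadjusted p under 0.05). By limma 0 members had an unadjusted p under 0.05. With 4 arrays a group the intervals were wide: within ±0.5 for 0 members and within ±1 for 70. In rps16 all heat ovaries lay below all control ovaries, with 10.05, 10.23, 9.94 and 10.38 in heat ovaries and 10.53, 10.39, 10.63 and 10.66 in control ovaries. In all, 2 of 79 members lay below in this way, or 2.53%, where 3.37% of all rows lay below without overlap. In rplp2l all heat ovaries lay above, with 14.28, 14.92, 14.35 and 14.75 in heat ovaries and 14.25, 14.24, 14.16 and 14.24 in control ovaries (1.27% of members, against 2.61% of all rows). Without heat ovaries 2 and 4, 0 members passed (background 0.0254%), and the member median was -0.04, against 0.01 with all 4 arrays.

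The heat effect was also compared between testis and ovary in 1 model of all 28 adult arrays. It differed for 0 of 79 members, against 1.21% of all rows, and 2 members had an unadjusted p under 0.05. The smallest adjusted p by limma was 0.1, for rps16, whose heat effect was 0.53 ± 0.18 (SE) more positive in testis than in ovary. Without heat ovaries 2 and 4 it was 0.68 ± 0.18 (SE, adjusted p = 0.200).

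**Figure D4:**
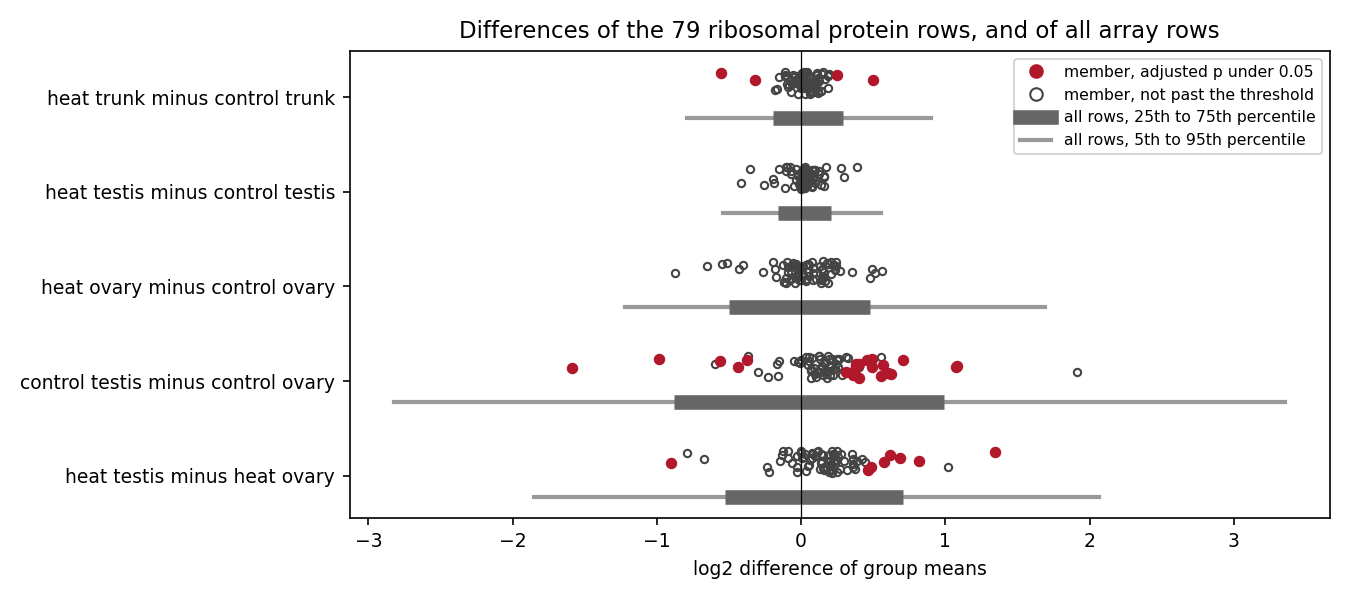
Log2 differences of the 79 members (circles, spread vertically at random; filled red where the adjusted p is under 0.05) in 5 comparisons, above the middle and outer ranges of all 31475 rows (thick and thin grey bars). Members pass in 4, 0, 0, 22 and 8 cases from top to bottom, and lie in a narrower range than all rows; the excess of positive values between the gonads moved to a median of 0.007 in control fish with centred arrays.

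The rows include 7 pairs of duplicated or diverged copies, and the difference between the 2 copies was compared over arrays in 5 comparisons. Exact two-sided permutation tests over the arrays gave 35 p-values, adjusted together, of which 8 passed. The gap between copies within an array does not depend on centring. In trunks the 2 copies of rps27 differed in their change, with -0.17 in rps27.1 and 0.50 in rps27.2, so the gap between their signals was smaller after heat. Their gap, rps27.1 minus rps27.2, was 2.58 ± 0.36 in heat trunks and 3.25 ± 0.25 in control trunks (SD, n = 10 and 8, exact permutation adjusted p = 0.0175). The gap of rps8a over rps8b was 3.46 ± 0.41 in heat trunks and 2.74 ± 0.65 in control trunks (exact permutation adjusted p = 0.0437). Its ranges, 2.81 to 4.14 in heat trunks and 1.60 to 3.44 in control trunks, overlap, and rps8b has a low signal. That of rpl22 over rpl22l1, a paralogue of rpl22, was 5.19 ± 0.18 in heat trunks and 4.91 ± 0.16 in control trunks (exact permutation adjusted p = 0.042). These trunk gaps are given with all arrays only, without the oocyte covariate.

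Between control gonads, rpl5a and rpl5b differed in their change. The gap rpl5a minus rpl5b ranged from -0.58 to -0.30 in control testes and from -0.97 to -0.63 in control ovaries, without overlap, a difference of 0.37 (exact permutation adjusted p = 0.0175). For rpl22 over rpl22l1 the gap was 6.08 ± 0.31 in control testes and 5.56 ± 0.18 in control ovaries (SD, n = 10 and 4, exact permutation adjusted p = 0.0437). In heat-exposed fish it was 6.12 ± 0.28 in testes and 5.55 ± 0.21 in ovaries (exact permutation adjusted p = 0.042). For rps27.1 over rps27.2 it was 2.06 ± 0.12 in control testes and 1.83 ± 0.13 in control ovaries (exact permutation adjusted p = 0.0437). The gap of rps8a over rps8b was 1.15 ± 0.74 in heat testes and 2.49 ± 0.49 in heat ovaries (exact permutation adjusted p = 0.042). Without heat ovaries 2 and 4 the mean gap in heat ovaries was 5.50 for rpl22 over rpl22l1 and 2.78 for rps8a over rps8b, farther from the testes in both, and neither passed (exact permutation adjusted p = 0.105 and 0.0589). With 2 heat ovaries the smallest unadjusted p that this exact test can give is 0.0152. In neither adult heat comparison did any of the 7 pairs pass. For ovaries this was set by the number of arrays. With 4 in each group, the smallest p of the exact test is too large to pass after the adjustment. Whether the gaps changed with heat in ovaries therefore cannot be decided by this test. Copies of nearly the same sequence can share probe signal, and probe sequences were not used here.

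Several cytosolic ribosomal protein genes have array names that the rule does not take. Among 8 such rows were zgc:92237 (rps6), zgc:77235 (rpl27a), zgc:92868 (rpl29), zgc:136826 (rps27l), rpsa, faua and gnb2l1 (rack1). The faua row belongs to a gene whose protein is a ubiquitin-like domain fused to a small-subunit protein. It averaged 11.001 ± 0.22 in control testes and 13.22 ± 0.51 in control ovaries (SD, n = 10 and 4), a difference of -2.22 that is larger than the fall of any of the 79 members. In trunks it averaged 11.15 ± 0.12 after heat and 11.75 ± 0.52 in controls (SD, n = 10 and 8), a fall of 0.60 on the log2 scale (adjusted p = 0.024 by limma), alongside the oocyte markers.

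The rps27l row, a relative of rps27 that p53 induces in human cells, moved the other way. It averaged 14.11 ± 0.24 in control testes and 12.24 ± 0.14 in control ovaries (SD, n = 10 and 4), a difference of 1.87. In trunks it was 0.39 higher after heat (adjusted p = 0.027 by limma). The rpsa row, a laminin-binding subunit protein, was 0.40 higher in control testes, and the rps6, rpl27a, rpl29 and rack1 rows did not pass. Values of these rows outside the rule are given as deposited only. Centring lowered every difference between the control gonads, and rpl5a, also 0.40 higher as deposited, did not pass with centred arrays. The rps6 row, the protein that S6 kinases phosphorylate, differed by 0.24 between control gonads (adjusted p = 0.175 by limma) and by -0.05 between heat trunks and control trunks.

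The rest of the ribosome pathway was read from lists of genes, given by counts and medians. Between control gonads the factors that build ribosomes were mostly lower in testes, under both scalings. Of 98 ribosome biogenesis rows 5 were higher and 72 were lower in control testes, and 21 did not pass, against 29.6% of all rows higher and 30.8% lower, with a median of -0.76 (-0.94 with centred arrays). Examples were bop1, of the complex that processes the large-subunit RNA (-2.88), sdad1 (-3.03), the small-subunit processome genes pwp2h (-2.03), wdr75 (-2.17) and nol11 (-2.19), and the nucleolar phosphoprotein gene nolc1 (-1.74). The higher ones included sbds (0.59) and eftud1 (1.05), which act together in a late step of large-subunit maturation.

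Of 57 mitochondrial ribosomal protein rows, 4 were higher (7.02%) and 32 lower (56.1%) in control testes, with a median of -0.51. Of 25 rows for RNA polymerases I and III and 5S factors, 5 were higher (20%) and 17 lower (68%), with a median of -0.67. Among them gtf3ab, a gene of TFIIIA, the factor that drives 5S RNA transcription and stores 5S RNA in oocytes, differed by -5.74. Of 29 rows of the TOR pathway and the regulators of TOP mRNAs, 4 were higher (13.8%) and 19 lower (65.5%), with a median of -1.08. They include larp1, which binds TOP mRNAs (-1.69), and mlst8, a subunit of the TOR complexes (1.43).

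Of 54 initiation factor rows 7 were higher (12.96%) and 24 lower (44.4%) in control testes, with a median of -0.20. The largest was pabpc1l, an oocyte poly(A)-binding protein gene (-4.49). The 23 elongation and termination rows split into 6 higher and 6 lower (26.1% each), near the shares of all rows, with a median of 0.08 (-0.10 with centred arrays). Here eef1a1b (3.48) and eef2l2 (3.32) were higher and gspt1l (-1.74) lower. The 13 rows of p53 and nucleolar stress had 3 higher and 3 lower (23.1% each), also near those shares. These lists are compared by counts alone, and the difference between them was not tested.

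**Figure D5:**
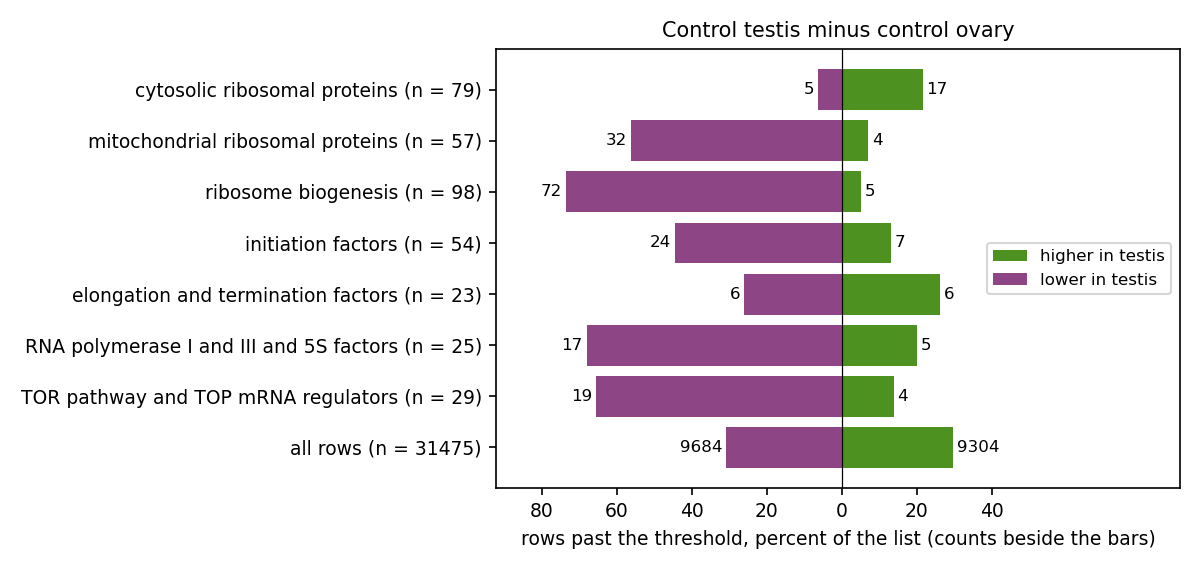
Rows past the threshold between control testis and control ovary, as percent of each list, higher in testis to the right (green) and lower to the left (purple), with counts beside the bars. Ribosome biogenesis has 5 higher and 72 lower of 98 rows, and the cytosolic ribosomal proteins 17 higher and 5 lower of 79, a split that became 7 and 10 with centred arrays.

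The biogenesis list also varied between heat ovaries. The mean over the ribosome biogenesis rows was 12.34, 11.54, 12.31 and 11.66 in heat ovaries 1 to 4, against 12.28 to 12.36 in control ovaries. Heat ovaries 2 and 4 were thus low in this list, beside their male germ cell markers. Their means over the 79 members, 12.79 and 12.74, were above all control ovaries as deposited. Taken above the median of all rows of the same array, the member means were 4.64, 4.63, 4.54 and 4.53 in heat ovaries 1 to 4, against 4.59 to 4.72 in control ovaries, so heat ovaries 1 and 2 lay within the control range and heat ovaries 3 and 4 below it. In heat-exposed fish 2 biogenesis rows were higher and 42 lower in testes than in ovaries, against 17% and 14% of all rows, or 4 and 59 without heat ovaries 2 and 4, against 23.7% and 24.3%.

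In trunks the lists moved little. Of the 98 biogenesis rows 6 were higher and 0 lower after heat (median 0.12), and 3 of 57 mitochondrial ribosomal protein rows were higher and 0 lower (median 0.15). These are 6.12% and 5.26% higher, against 8.59% of all rows. Without heat trunks 1, 2 and 10 the biogenesis count was 1 higher and 0 lower, and with the oocyte covariate 0. In these fits 9.1% and 0.591% of all rows passed. The initiation factor list had 3 higher and 3 lower rows. Large falls were seen in genes with known oocyte expression, which fell with the 18 oocyte markers: gtf3ab (-5.17), pabpc1l (-4.75) and eif4e1b, an oocyte form of the cap-binding protein (-3.09). In both adult heat comparisons 0 rows of these lists passed by limma.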

How the data were processed

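Per the labels, total RNA of 46 samples (6 groups) was amplified with a whole-transcriptome kit and hybridised to single-colour arrays, 1 sample each. The authors deposited 1 table of 31475 rows, with log2 signal values from 3.76 to 15.89. The submitters' processing notes name RMA, with no version; its background correction, scaling and row summary precede these values, and the base of the logarithm was read from their range. Which arrays were normalized together is not given in the sources used here, and upper quartiles differ between ages (10.64 to 10.72 in adults, 10.90 to 10.95 in trunks), so groups were compared within an age only. The table holds no background or saturation flags. The number of arrays limits the precision.

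Each comparison was fitted over all rows with limma 3.58.1 in R 4.3.3 (lmFit, eBayes, two-sided), on the arrays of its groups, with Benjamini-Hochberg adjustment over all rows. The difference of heat effects used all 28 adult arrays. The fit was tested on simulated data. Copies of a gene were compared with exact permutation tests over arrays, adjusted over 35 tests. Alternatives were array weights, no dim rows (lowest 25%), centred arrays, a replicate block, wider models, and arrays left out. Named members were the 8 largest rises and falls past the threshold, the stalk genes and the copies; other genes were at most 6 a list by p. Additional members, including rpl27, were named after their values were seen. The members and lists were chosen with earlier results of these data known. Of 416 list entries 377 were found. Names were matched to RefSeq tables. Some rows that passed are counted but not reported by name here.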

Additional observations from a re-analysis of the deposited data

Results flagged for a closer look

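For 19 members and for the mean over all 79, in each of the 6 groups, sets of 4 to 10 arrays were checked. Of 120 sets 9 held an array far from the rest of its group, where chance alone gives about 1 in 20. The 19 members include rows named after their values were seen, rpl27 among them, so the 9 cannot be set against that rate. The rpl27 row accounts for 3 of them: 11.29 in heat testis 7 against 14.86 to 15.16 in the other heat testes, 9.29 in heat ovary 3 against 14.92 to 15.19 in the other heat ovaries, and 7.49 in control ovary 3 against 14.94 to 15.21 in the other control ovaries. In heat ovary 3 the rpl5b row was low as well, at 14.67 against 14.998 to 15.06. In control ovary 4 rplp0 was high at 14.53 against 14.22 to 14.27, and in control testis 4 rps19 was low at 14.37 against 14.53 to 14.70. In heat trunks, rpl38 was low in array 5 (14.18 against 14.34 to 14.51), rps16 low in array 2 (10.85 against 11.26 to 11.61) and rpl39 high in array 9 (7.47 against 7.04 to 7.20).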

How the results depend on the processing

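Numbers shared between groups were not taken as pairs. The correlation of same-numbered arrays exceeded 0.1 in 1 of 8 trunk pairs, 2 of 10 testis pairs and 2 of 4 ovary heat pairs. It did so in 0 of 4 pairs between the gonads at either temperature. The ovary heat pairs ranged from 0.02 to 0.15. Arrays of different numbers were not compared, so these values cannot decide whether the arrays are paired. With a replicate block the members past the threshold numbered 0 in trunks, against 4, 6 between control gonads, against 22, and 0 between heat gonads, against 8. Trunk counts were 2 with all 46 arrays in 1 model, 0 without heat trunks 1, 2 and 10, and 0 with the oocyte covariate. Between heat gonads the count was 4 with array weights, 4 with centred arrays, 17 with all 28 adult arrays and 20 without heat ovaries 2 and 4. All these are counts of members alone. The shares of all rows with the replicate block, array weights and wider models are not given here. These counts therefore cannot show whether the members differ from all rows in gaining or losing calls. The share of all rows between heat gonads shifted as well, from 31% to 48% without heat ovaries 2 and 4. Centring moved the member median to -0.0744 for heat in ovaries, 0.00706 between control gonads and 0.0638 between heat gonads, and the difference of member means to -0.0696, -0.00427 and 0.0432 in the same order. Without heat ovaries 2 and 4 the median difference of heat effects between testis and ovary was 0.0780. Leaving out single arrays gave counts of 1 to 3 in trunks (median 0.02 to 0.05), 0 to 0 in testes (0.01 to 0.04), 0 to 0 in ovaries (-0.02 to 0.07), 17 to 23 between control gonads (0.15 to 0.20), 1 to 14 between heat gonads (0.13 to 0.20) and 0 to 1 for the difference of heat effects (-0.03 to 0.03). Adding 8 rows of other names, leaving out rps19bp1, rpl7l1 and rpl22l1, and centring the member means were alternatives added with the data in view. The causes of these shifts were not tested. Signals near the top of the scale may be compressed, which these values cannot show.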
